A study of Mus musculus with 3 samples.

Results

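The inner root sheath is the sleeve of keratinocytes that surrounds the growing hair shaft, and the cells described here are mouse skin cells that carried its keratins. Members were barcodes with at least 800 unique molecular identifiers (UMIs, each standing for 1 captured transcript), at least 300 genes and at most 20% mitochondrial counts, in which Krt25, Krt27, Krt28, Krt71 and Krt73 together reached 20 UMIs and exceeded the sum of the hair shaft keratins Krt31, Krt33a, Krt33b and Krt35. In the library labelled metformin 339 of 11738 kept cells met this rule (2.89%, 95% interval 2.59 to 3.21), and in the control library 8 of 11554 did (0.0692%, 0.0299 to 0.136). In all, 347 of 23292 kept cells were members. Intervals on shares are exact (Clopper-Pearson), and every interval covers counting error only. The 9 keratins of the rule chose the cells, so their sums are given as a description.

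The inner root sheath forms in the hair matrix at the base of a growing follicle, where dividing epithelial cells around the dermal papilla supply the shaft and its sheath. Its cells, known as the Henle, Huxley and cuticle layers, move upwards, fill with trichohyalin granules, harden before the shaft does and are broken down below the skin surface. Keratins are built from pairs of a type I and a type II chain. Krt25, Krt27 and Krt28 are type I keratins of the sheath, and Krt71 and Krt73 are its type II partners. In human follicles KRT71 is found in all layers of the sheath, whereas KRT73 marks its cuticle and KRT74 its Huxley layer.

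All libraries were made from skin of C57BL/6 mice aged 7 weeks, and the agents named in the labels are control, Shi-Bi-Man and metformin, each with 1 library. The labels' extraction text also speaks of cynomolgus monkey, but organism and gene identifiers are those of mouse. The labels give no dose, route, body site or number of animals, and the Shi-Bi-Man counts were not analysed here. With 1 library per agent no test between agents was possible, and the agent, the animals and the library cannot be told apart. The median kept cell had 4238.5 UMIs in the control library and 6713 in the metformin library. The control and metformin libraries had 41 barcode sequences in common, and 2 metformin members carried such a barcode.

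The 5 keratin genes that chose the cells lie in both keratin gene clusters of the mouse genome (GRCm38, GENCODE M21). The type I genes are on the minus strand of chromosome 11, Krt25 at 99315516 to 99322951, Krt27 at 99345565 to 99351104 and Krt28 at 99364872 to 99374903. The type II genes are on the minus strand of chromosome 15, Krt71 at 101733949 to 101743109 and Krt73 at 101793308 to 101802346. The 100 bases before each RefSeq start site (GRCm38.p6) are shown because these genes define the cells. They are written 5′ to 3′ on the gene's strand, for Krt25 at chr11:99322952-99323051, Krt27 at chr11:99351119-99351218, Krt28 at chr11:99374904-99375003, Krt71 at chr15:101743098-101743197 and Krt73 at chr15:101802361-101802460. Capitals mark the letters TATAAA, the form of a TATA box.
Krt25: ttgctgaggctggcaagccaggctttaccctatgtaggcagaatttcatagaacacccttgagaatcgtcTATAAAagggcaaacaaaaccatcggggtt
Krt27: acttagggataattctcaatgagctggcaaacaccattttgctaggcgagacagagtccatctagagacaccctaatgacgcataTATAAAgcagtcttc
Krt28: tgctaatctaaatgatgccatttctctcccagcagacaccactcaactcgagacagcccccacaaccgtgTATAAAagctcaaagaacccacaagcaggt
Krt71: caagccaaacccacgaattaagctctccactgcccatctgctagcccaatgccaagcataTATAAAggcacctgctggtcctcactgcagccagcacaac
Krt73: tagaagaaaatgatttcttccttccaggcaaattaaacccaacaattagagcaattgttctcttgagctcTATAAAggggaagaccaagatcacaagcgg

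TATAAA stood on the gene's strand in all 5 of these windows, with its first base 30 bases before the start in Krt25, Krt28 and Krt73, 15 before it in Krt27 and 40 before it in Krt71. Of 32851 RefSeq promoters 1248 (3.80%) hold these letters in the same window. The motif AGATAA, a form bound by Gata family factors, was searched on both strands over 250 bases and occurred 194 bases before the start of Krt25, 183 before Krt27, 225 before Krt71 and 182 before Krt73. It was not in the window of Krt28, and 3281 of 32851 promoters (9.99%) hold it. A match is a description of the letters and not a site of binding.

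The plot of both keratin sums for each cell shows how few cells lay between the sheath and the shaft.

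**Figure D1:**
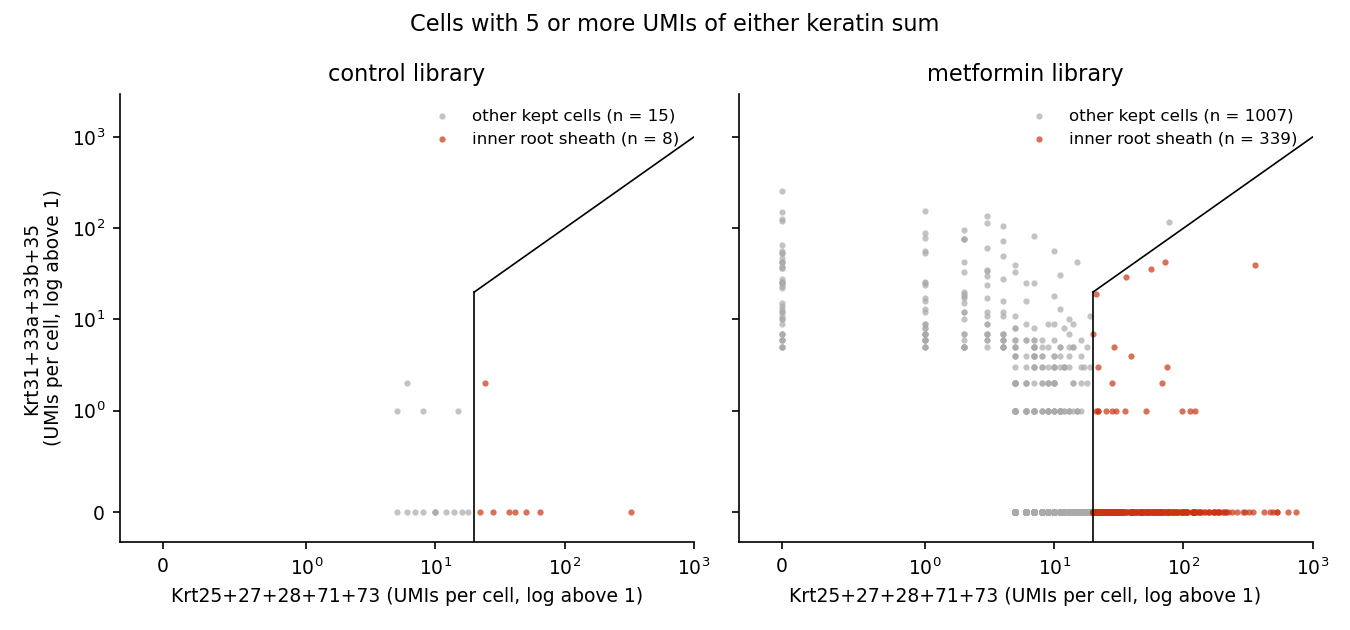
Each point is 1 cell with 5 or more UMIs of either keratin sum in the control (left) or metformin (right) library. The horizontal axis is the sum of the 5 sheath keratins and the vertical axis that of the 4 shaft keratins (UMIs per cell, log scale above 1), and the lines mark the rule. The 339 metformin members lie along the foot of the panel, and 316 of them had no UMI of a shaft keratin, while the control panel holds 8 members.

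Among the 339 metformin members the keratin sum was 20 at the lowest, 39 at the median and 750 at the highest. It took 0.0474% to 19.99% of a cell's UMIs, with a median of 0.317%. Total UMIs ran from 1102 through a median of 12221 to 77821. Only 1 further cell reached 20 UMIs and failed the condition on shaft keratins, so the minimum of 20 UMIs set the membership. Just inside it were 20 cells with exactly 20 UMIs, and just outside 18 cells with 19.

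Krt25 was the most abundant of the 5 keratins in captured transcripts, a scale that is not adjusted for gene length. It had 8594 UMIs in members, 73.9% of the 11631 in the library, with a median of 13 and a maximum of 323 per cell. Krt71 had 6327 UMIs in members, 92.8% of those in the library, and Krt73 had 2112, or 96.5%. Krt28 and Krt27 were less confined, with 4990 UMIs (51.1%) and 1741 UMIs (46.3%) in members. The type I chains were also the more widespread within the members. Krt25 was detected in 334 of the 339 cells, Krt28 in 331 and Krt27 in 291, against 218 for Krt71 and 159 for Krt73. Every member had a UMI of at least 1 type I sheath keratin, but 88 had none of Krt71 or Krt73. Of those 88 cells 85 carried Krt5, the type II keratin of basal and outer root sheath cells, and across all members Krt5 was detected in 238.

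The other keratins that mark layers of the sheath were close to absent. Krt26 had 2 UMIs and Krt72 had 1 UMI over all members, from 10 and 2 in the whole metformin library, and the symbol Krt74 matched no gene name in the files. No cell could therefore be placed in the Henle, Huxley or cuticle layer by those markers, and the clusters below are called by number and by their leading genes.

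Trichohyalin (Tchh, chromosome 3 at 93442330 to 93449077) and Gata3 (chromosome 2 at 9857078 to 9890034) were not part of the rule. Gata3 is a transcription factor that mouse follicles need to form this sheath. Both were used to check the label over the members as a whole. Levels are given as counts per 1000000 counts outside the 9 keratins of the rule (CPM), summed over the cells of a class. Tchh was 431 CPM in members against 8.72 in the other kept metformin cells, a ratio of 49.4 (45.4 to 53.7). Members held 2183 of the 2941 Tchh UMIs of the library (74.2%), yet only 65 of the 339 cells had a Tchh UMI. Gata3 was found in 294 members, at 272 CPM against 140 in the other cells, a ratio of 1.94 (1.83 to 2.05). It is used by other skin cells as well, and members held 10.2% of its 13578 UMIs. The check does not hold for every part of the members. In the 72 members with 20 to 24 keratin UMIs Tchh was 1.65 CPM, from 2 UMIs, while Gata3 was 176. In clusters 3 and 5, described below, Gata3 was 111 and 101 CPM, under the 140 of the other cells. Of 15758 genes compared in this way 1036 (6.57%) were at least 2-fold higher in members and 3544 (22.5%) at least 2-fold lower. Of the 8 sheath genes outside the rule 4 could be measured, of which 2 (Tchh and Padi3) were 2-fold higher and 1 (Tgm3) was 2-fold lower. Of the 12 basal and outer root sheath genes 9 were lower and of the 12 epidermal differentiation genes 11, among them Krt14 (533 against 4884 CPM) and Krt10 (350 against 1988 CPM). These member levels are sums over unlike cells. In clusters 2, 3, 5, 6 and 7, described below, Krt14 was 54.6 to 290 CPM and Krt10 was 50.8 to 92.7.

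Cells that should lack these keratins gave a measure of keratin UMIs from free RNA or doublets, which these shares do not tell apart. Among 826 metformin cells with 3 or more UMIs of the T cell genes Cd3e, Cd3d and Cd3g, 72 carried any UMI of the 5 keratins (8.72%, 6.88 to 10.9, median depth 2595.5 UMIs). Among 1364 fibroblasts it was 57 cells (4.18%, median depth 4697.5 UMIs). These classes exclude members, so any T cell or fibroblast that met the rule is left out of the shares. Their highest cells had 19 and 16 keratin UMIs. Because of that exclusion, these values cannot show whether free RNA or doublets reach the minimum of the rule. With each cell thinned to 1500 UMIs the shares were 3.92% and 1.28%. In the control library the unthinned shares were 0.855% and 0.190%.

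The 8 control members were unlike one another. The first had 326 keratin UMIs among 11331, with 149 of Krt71, 111 of Krt25 and 31 of Krt73, and 51 UMIs of Tchh. It was the only control member with Tchh, and it held most of the 168 Krt71 UMIs of the control members. In most of the others Krt28 or Krt73 led. The second cell had 44 UMIs of Krt28 and 17 of Krt73, the third 19 of Krt71 and 16 of Krt28, and the fourth 33 of Krt28. The fifth had 22 of Krt28 beside 144 of Krt14 and 112 of Krt10, keratins of the epidermis. The sixth was a shallow cell of 1468 UMIs and 13.8% mitochondrial counts whose 28 keratin UMIs were all Krt73. The seventh and eighth had 19 and 17 UMIs of Krt28 and none of Krt71 or Krt73. Gata3 was found in 7 of the 8.

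The metformin members were divided into 7 clusters without using any keratin gene or any gene of the lists of markers and pathways, so that these genes did not shape the clusters. Genes outside the lists, among them Maf, Aqp3, Slc39a8, Crym, Prr9, Fbp1, Slpi and Timp3, were open to the clustering. Their ratios between clusters, with intervals, therefore describe genes that may have formed the clusters. The plot of keratin composition shows that the mixture of the 5 keratins differed between the clusters.

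**Figure D2:**
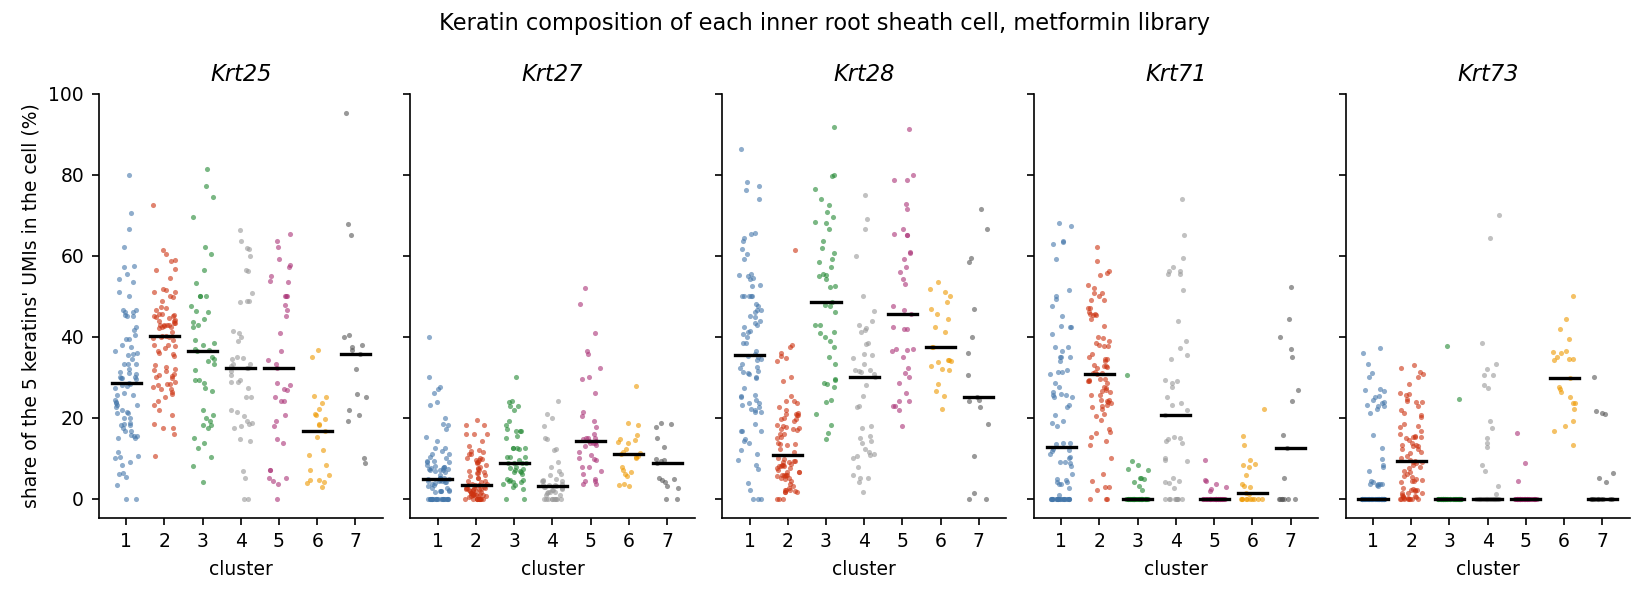
Each point is 1 metformin member, placed by its cluster (horizontal axis) and by the share of its 5 sheath keratins' UMIs that came from the keratin named above the panel (vertical axis, %). Lines mark the median of a cluster. Krt71 has its highest median in cluster 2 (30.8%) and Krt73 in cluster 6 (29.8%), while both medians are 0 in clusters 3 and 5.

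Cluster 2 (82 cells, 24.2% of members) held the cells richest in sheath keratin, with 29 to 750 keratin UMIs per cell, a median of 111.5 and a median share of 1.62% of the cell. Its median depth was 7698 UMIs and none of its cells was called a doublet. Krt25 was the leading keratin in 48 cells and Krt71 in 25. Type II chains made up 43.4% of the sheath keratin UMIs, and every cell had at least 1.

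Tchh and Krt71 were the genes with the largest ratios of cluster 2 to the other members. Tchh reached 2689 CPM against 125 in the other members, a ratio of 21.5 (19.5 to 23.7), and Krt71 reached 7322 against 427 (17.2-fold). Aqp3, a channel for water and glycerol, was 338 against 23.7 (14.2-fold, 11.2 to 18.2). Slc39a8, a zinc transporter, was 290 against 20.8 (13.9-fold). Ctsc, the lysosomal protease cathepsin C, was 353 against 32.5 (10.9-fold, 8.75 to 13.5). Maf, a transcription factor of the basic leucine zipper family, was 959 against 114 (8.43-fold). Krt71, Tchh and Ctsc, left out of the clustering, therefore stood highest in the same cluster as Maf, which was open to it. Gata3 was 618 CPM (556 to 684) here and 536 (429 to 662) in cluster 6, with overlapping intervals. Tgm1, a transglutaminase that cross-links the cornified envelope, was 46.4 CPM (30.8 to 67.0) here and 18.7 (3.86 to 54.6) in cluster 6, the next highest, which rests on 3 UMIs in 2 cells. Padi3, an enzyme that converts arginine in trichohyalin to citrulline, was 62.9 CPM, close to the 68.6 of cluster 6.

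Trichohyalin was very unevenly spread within cluster 2. It was at 0 in 41 of the 82 cells, between 1 and 9 UMIs in 21, and at 10 or more in 20. The richest cells had 402, 263 and 192 UMIs and together held 857 of the 1624 Tchh UMIs of the cluster (52.8%). Across the 82 cells, which share 1 library and differ in depth, Tchh went with Krt25 (Spearman rho 0.59) and Krt71 (0.48), and Krt71 went with Krt25 (0.72). For Tchh with Krt73, Krt28 and Gata3 rho was 0.06, 0.08 and −0.12. Krt71 and Krt73 ran in opposite directions (rho −0.41).

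Cluster 2 was therefore also divided by which type II keratin was higher, a division made after these values were seen and using both genes. Krt73 exceeded Krt71 in 16 cells and did not in 66. Tchh was 1103 CPM (929 to 1300) in the 16 cells, where 7 had it, and 3118 (2962 to 3281) in the 66, where 34 had it. Ctsc was 101 (53.8 to 173) against 421 (365 to 483), Maf was 559 against 1067 and Krt25 was 4335 against 9294. Summed levels of Tchh, Ctsc, Maf and Krt25 were thus lower in the cells with more Krt73. For Tchh, the 2 sets differed less in the number of cells with a UMI than in level, and a few cells hold much of its sum. Krt28 was 2719 CPM in them against 1955, whereas Gata3 (637 against 612) and the desmosomal cadherin Dsc1 (163 against 160) were close in level.

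Cluster 6 (23 cells, 6.78% of members) was the Krt73 cluster. All 23 cells had Krt73, from 5 through a median of 18 to 34 UMIs, and its level of 2624 CPM was 7.62-fold that of the other members. Krt28 led in 15 of the cells and Krt73 in 6, and Krt71 led in none, at 330 CPM against 7322 in cluster 2. Tchh was found in 2 of the 23 cells (56.1 CPM).

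Cluster 6 had leading genes that cluster 2 had at far lower levels. Crym, a crystallin family protein that binds thyroid hormone, was 723 CPM against 5.50 in the other members (131-fold, 85.9 to 208) and was found in 19 of 23 cells. Prr9 was 1926 against 54.6 (35.3-fold) and was found in 21 cells. Fbp1, the gluconeogenic enzyme fructose-1,6-bisphosphatase, was 1346 against 55.6 (24.2-fold) and was found in 22 cells. The crystallin gene Cryba4 was 717 against 5.50 and Fam25c was 1477 against 144. Sox21, a transcription factor that mouse hair cuticle requires, was 443 CPM (346 to 558), against 7.00 to 59.8 in the other clusters. Notch2 and the Notch target Hes1 were also highest here, at 324 and 580 CPM.

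A few cells of cluster 6 carried genes of the hair shaft. S100a3, a calcium-binding protein of the hair cuticle, had 256 UMIs in the cluster, of which 223 came from 1 cell. Krt35 was 499 CPM but was found in 3 of the 23 cells, and the hair shaft list as a whole had 98.5% of its UMIs in 3 cells. Melanocyte genes were at 0 in this cluster and the fibroblast genes stood at 31.2 CPM.

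Clusters 2 and 6 shared low levels of division genes and high levels of adhesion genes. The summed level of 15 cell division genes was 500 CPM (445 to 560) in cluster 2 and 330 (247 to 432) in cluster 6, against 1639 to 3166 in the other 5 clusters. At least 1 UMI of the list was present in 40 of 82 and 9 of 23 cells. Mki67, a protein of dividing nuclei, was found in 22 of the 82 cells of cluster 2 and in 1 of the 23 of cluster 6. The 16 genes of desmosomes, the junctions that hold keratinocytes together, summed to 4485 CPM (4318 to 4657) in cluster 2 and 3958 (3656 to 4278) in cluster 6, against 855 to 3580 elsewhere, where cluster 4 had the 3580 (3458 to 3704). Dsc1, a cadherin of differentiating keratinocytes, was 161 and 193 CPM in these clusters and no higher than 36.2 in any other. Perp, a membrane protein of desmosomes, was 1853 and 1982 against 398 to 1549.

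**Figure D3:**
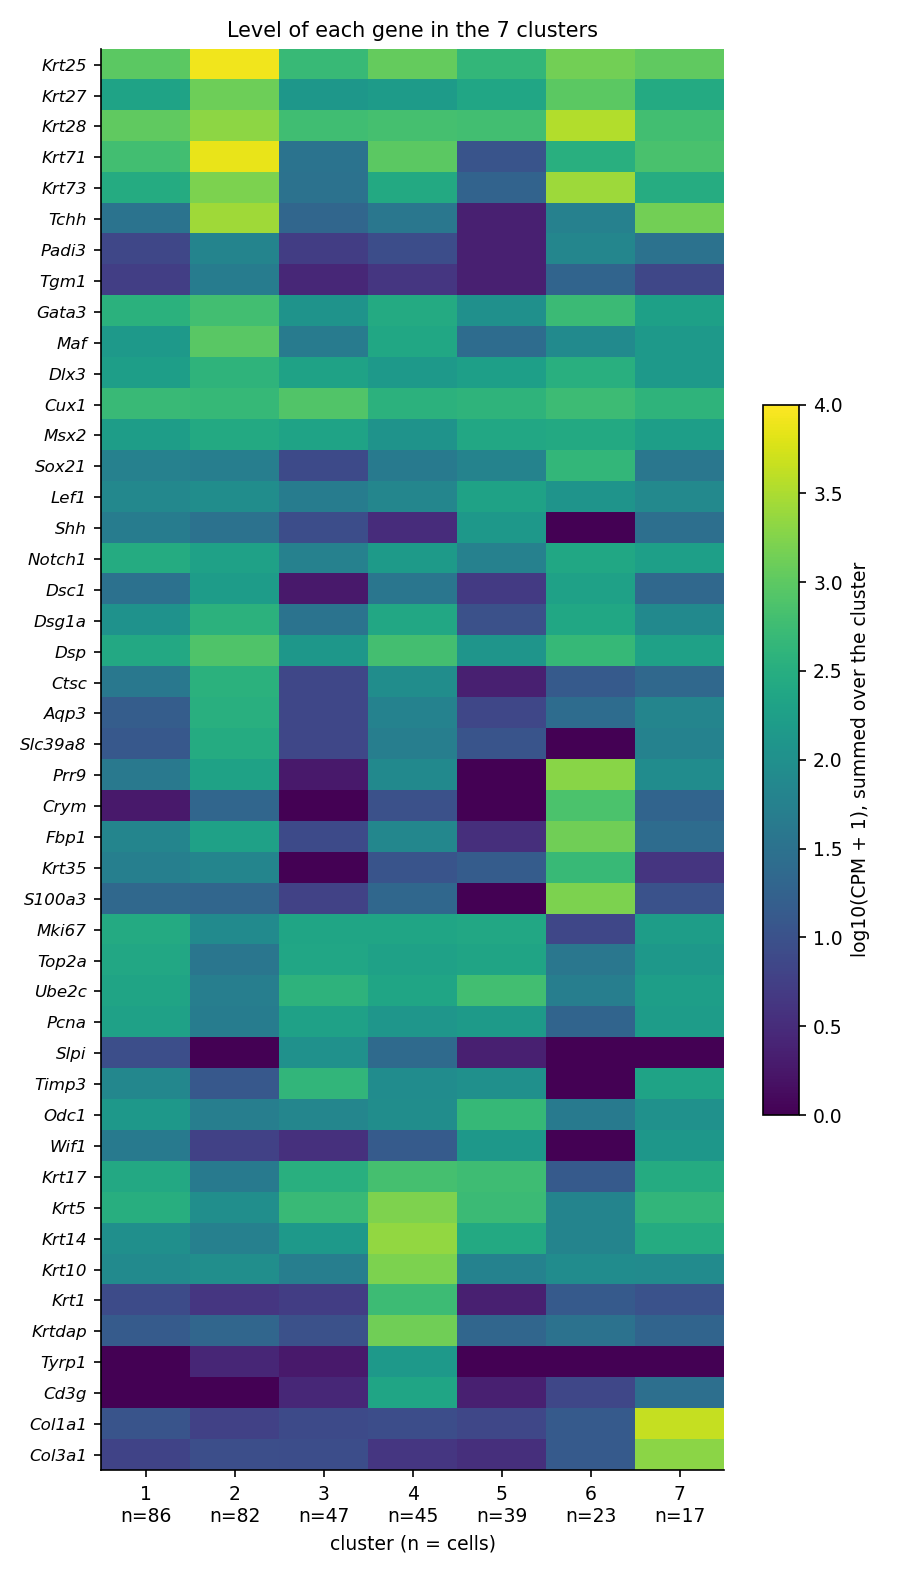
Colours give the level of each gene (rows) in each cluster of metformin members (columns, n = cells), as log10 of CPM plus 1, summed over the cluster's cells. Tchh, Krt71, Ctsc and Aqp3 are brightest in cluster 2, Prr9, Crym and Fbp1 in cluster 6, the division genes are dark in both, and Col1a1 and Col3a1 are bright in cluster 7 only.

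Cluster 1 (86 cells, 25.4% of members) lay between these clusters and the keratin-poor ones. Its cells had 20 to 172 keratin UMIs with a median of 32, and type II chains made up 28.6%. Krt28 led in 42 cells, Krt25 in 27 and Krt71 in 15. Gata3 was 353 CPM, and the cell division list was 2324, with Mki67 in 73 of 86 cells, so Gata3 and division genes were both present in most cells. Its leading genes had ratios under 3. Notch1 was 292 CPM against 116 in the other members (2.52-fold, 2.18 to 2.91), and Nrarp, a feedback inhibitor induced by Notch, was 2.12-fold higher. Alcam, an adhesion molecule, was 2.76-fold higher, and the cholesterol synthesis enzymes Fdps and Pmvk were 2.29-fold and 2.12-fold higher. Tchh was found in 7 of the 86 cells.

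Clusters 3 (47 cells) and 5 (39 cells) carried type I sheath keratins with almost no type II partner. Krt71 and Krt73 made up 4.95% and 2.06% of their sheath keratin UMIs, and 35 of 47 and 31 of 39 cells had neither. Of those cells 34 and 31 carried Krt5. Their keratin sums were low, with medians of 27 and 26 UMIs, and 20 and 16 cells lay within 5 UMIs of the minimum. They were also the deepest members, with median depths of 23011 and 18693 UMIs, so that a sum of 20 was a small share of the cell (medians 0.129% and 0.144%). Tchh was in 5 of 47 cells of cluster 3 and 1 of 39 cells of cluster 5, Gata3 was 111 and 101 CPM, and Dsc1 was 0.875 and 3.74. Both clusters were rich in division genes, at 2482 and 3166 CPM, with at least 1 UMI of the list in every cell. With Krt71, Tchh and Dsc1 near 0, these cells met the rule by Krt25, Krt27 and Krt28 and are not described as a layer of the sheath.

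These clusters differed in their leading genes. Cluster 3 led in Slpi, a protease inhibitor (106 against 7.89 CPM, 13.4-fold, but in 13 of 47 cells), and in Timp3, an inhibitor of metalloproteinases (435 against 80.0, 5.44-fold, in 46 of 47). The basement membrane collagen Col4a1 was 7.75-fold higher and Dusp6, a phosphatase of the ERK pathway, was 5.46-fold higher. Lhx2 and Lgr5, genes of the outer root sheath and its stem cells, were 206 and 35 CPM here, and in the other clusters Lgr5 reached at most 21.8, in 4 cells of cluster 7. Lhx2 was also present elsewhere, at 115 CPM in cluster 5 and 128 in cluster 7. Cluster 5 led in Shh and Wif1. Shh, the Hedgehog ligand of the hair matrix, was 133 against 21.6 (6.19-fold) in 13 of 39 cells. Wif1, a secreted Wnt inhibitor, was 135 against 25.3 (5.32-fold), Wnt5a was 162 against 49.0 (3.31-fold) and the Wnt effector Lef1 was 203 against 68.7 (2.96-fold). Odc1, the first enzyme of polyamine synthesis, was 474 against 90.2 (5.25-fold). Dcn, a proteoglycan of connective tissue, was 1457 against 354 and present in 37 of 39 cells, while the fibroblast list as a whole stood at 1473 CPM, nearly all of it Dcn.

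Clusters 4 and 7 held all 36 called doublets among the members. Cluster 4 (45 cells, 22 of them called) carried genes of several cell types. Krtdap, of the epidermal differentiation list, was found in 21 of the 45 cells. Krt77 and Krt1, keratins of the suprabasal epidermis, were 1154 against 8.90 and 560 against 5.05 CPM, in 19 and 16 cells. The T cell genes Cd3g and Trdc were found in 10 and 9 cells, and Tyrp1, a melanocyte enzyme, in 2 cells. The T cell list summed to 586 CPM, the melanocyte list to 632 and the epidermal differentiation list to 6237, with 54.1% of the last in 3 cells. Cluster 7 (17 cells, 14 of them called) carried collagens of fibroblasts, with Col1a2 in all 17 cells (3411 CPM), Col3a1 in 16 and Col1a1 in 15. Its fibroblast list stood at 12118 CPM, against 31.2 to 1473 in the other clusters. Tchh appears high there (1420 CPM), but 298 of its 456 UMIs came from 1 cell and 3 cells held 99.8%. The part of doublets in these results was not tested, and the counts of the comparisons below were also made without these clusters.

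Because the clusters differed in depth, each cell was also thinned to 1500 UMIs, which left out 3 cells of cluster 2 and 1 of cluster 6. Krt71 was then found in 71 of 79 cells of cluster 2 (89.9%), 8 of 22 of cluster 6 (36.4%), 38 of 86 of cluster 1 (44.2%), 1 of 47 of cluster 3 and 0 of 39 of cluster 5, which allows a share of up to 9.03%. Krt73 was found in all 22 cells of cluster 6 and in 72.2% of cluster 2, against 18.6% in cluster 1. Gata3 was found in 62.0% and 45.5% of the cells of clusters 2 and 6, in 47.7% of cluster 1, and in 8.51% and 10.3% of clusters 3 and 5. Tchh was found in 39.2% of cluster 2 and in 0% to 11.8% of any other. Mki67 was found in 41.9% of cluster 1, 23.4% of cluster 3 and 15.4% of cluster 5, against 10.1% and 4.55% in clusters 2 and 6, and only the interval of cluster 1 (31.3% to 53.0%) lay above those of clusters 2 and 6.

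The share of a cell's UMIs taken by the 5 keratins gives an axis that does not need clusters. Members were divided into 4 bins of this share, at 0.0474% to 0.152%, 0.153% to 0.317%, 0.317% to 0.940% and 0.954% to 19.99%. Depth ran the other way, with medians of 23105, 13152.5, 9697 and 6953 UMIs, since a shallow cell reaches 20 UMIs only at a high share. Called doublets numbered 15, 13, 6 and 2. The highest bin was made of 66 cells of cluster 2, 13 of cluster 6 and few others.

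Division genes were low and sheath genes high in the bin richest in keratin. The cell division list was 2589 CPM (2523 to 2657) in the lowest bin, 1973 and 2048 in the middle ones and 467 (415 to 524) in the highest, a log2 ratio of −2.47 between the ends. Gata3 was 139 (124 to 156), 222, 453 and 574 (516 to 637) from the lowest to the highest, a log2 ratio of 2.04. Maf was 39.5, 106, 302 and 935, and Dsc1 was 2.70, 8.61, 82.1 and 180, so these genes were higher in each bin than in the one before. Tchh was 4.04, 40.7, 182 and 3160 (3021 to 3303), and it was present in 42 of 85 cells of the highest bin against 8 of 85 of the lowest. Ctsc was 8.09, 35.2, 98.9 and 326, and Prr9 had no UMI in the lowest bin and reached 496 in the highest. The 15 immediate early genes, which respond to stress and to the dissociation of tissue, were 8744, 8444, 6785 and 4839 CPM over the same bins, and the glycolysis list was 2269, 2098, 1668 and 1206. Their part in these differences was not tested. Gata3 stood at 453 in the third bin, where Tchh stood at 182 and the division genes at 2048.

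Of other genes of the follicle, Msx2, Cux1 and Lef1 were less ordered along this axis than Dlx3. The desmosome list was 1351, 1907, 3210 and 4614 CPM from the lowest bin to the highest. The basal and outer root sheath list went the other way, at 2292, 2129, 1418 and 995. Msx2, a homeobox factor of the matrix, was 203, 151, 178 and 279 CPM, Cux1, a homeodomain factor of matrix and sheath, was 607, 495, 412 and 501, and Lef1 was 93.0, 99.5, 69.4 and 90.8. Dlx3, a homeobox factor needed for hair, was 164, 168, 215 and 407, higher in each bin than in the one before. Krt17, a keratin of the companion layer and outer root sheath, was 387, 545, 268 and 56.7, and Krt5 was 713, 723, 456 and 272. Dcn was 660, 668, 268 and 165.

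**Figure D4:**
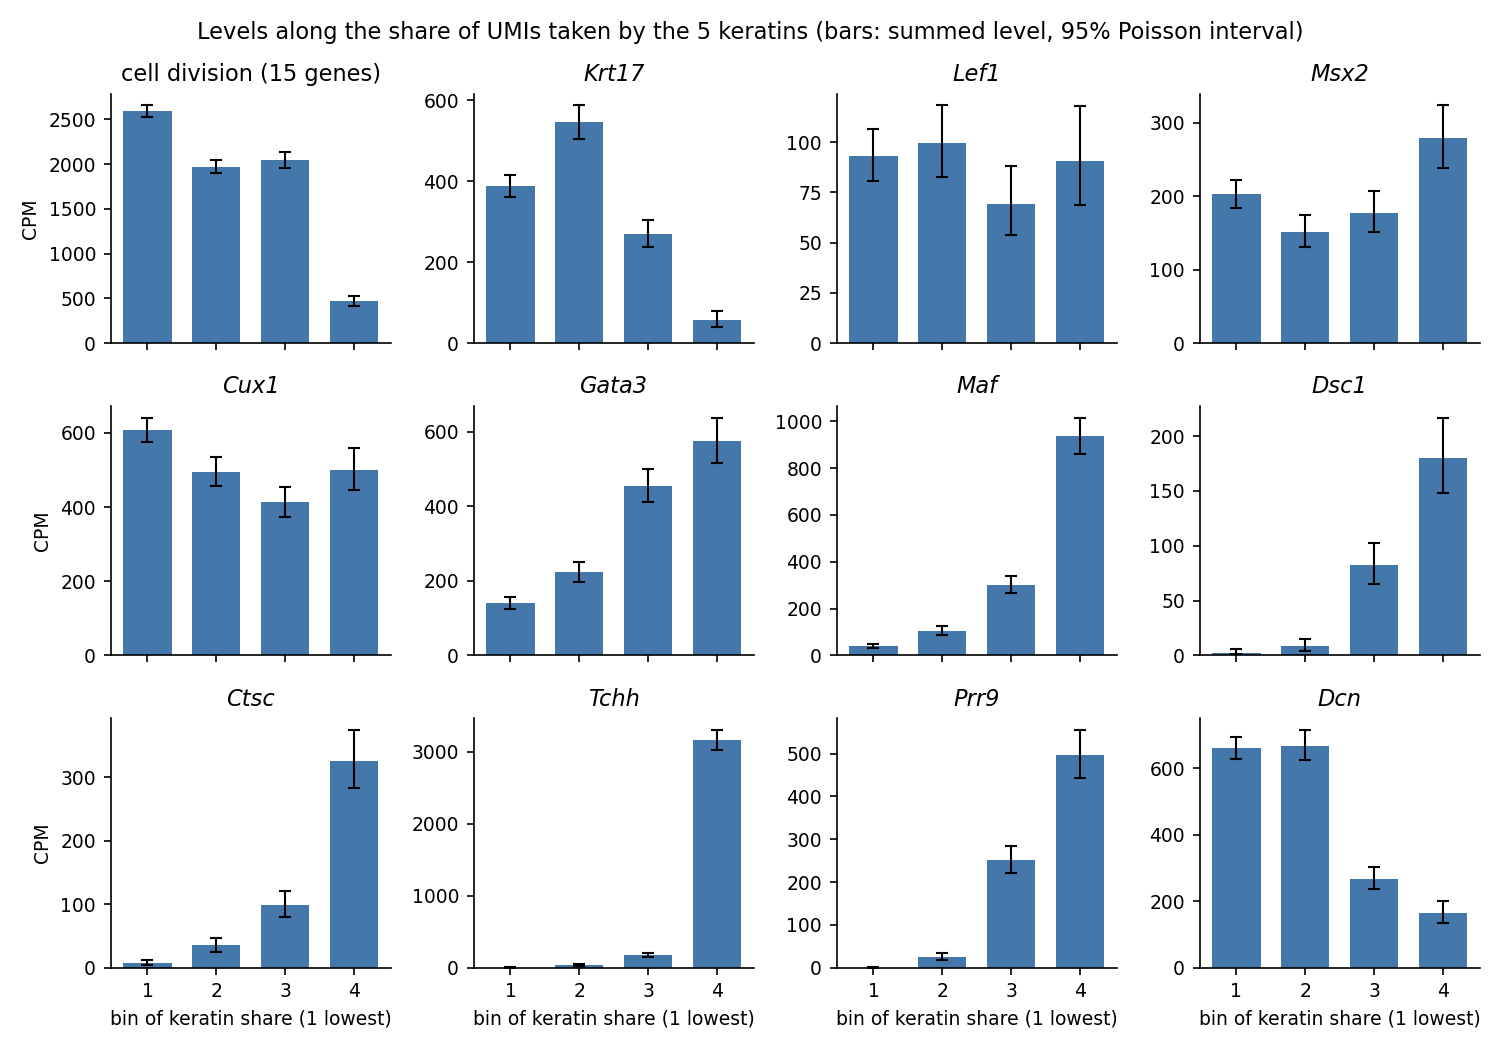
Each panel gives the level of 1 gene, or of the 15 division genes, in CPM (vertical axis, from 0) over the 4 bins of keratin share (horizontal axis, lowest to highest). Bars are sums over the 84 or 85 cells of a bin with 95% Poisson intervals. Gata3, Maf, Dsc1, Ctsc and Prr9 are higher in each bin than in the one before, Tchh is concentrated in the fourth at 3160, and the division genes drop to 467 there.

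The edge of the rule was examined in the same way. The 127 metformin cells with 15 to 19 keratin UMIs, just outside, had 5.99% type II chains, Gata3 at 126 CPM (111 to 143) and Tchh at 5.13 (2.46 to 9.43). The 72 members with 20 to 24 UMIs had 10.2% type II chains, Gata3 at 176 (153 to 201) and Tchh at 1.65. The 59 members with 100 or more UMIs had 42.5% type II chains, Gata3 at 470 (420 to 525) and Tchh at 2923 (2796 to 3055). Gata3 was higher in the members near the minimum than in the cells just outside it and lower than in the keratin-rich members, without overlap of the intervals. Tchh was low on both sides of the minimum. The share of type II chains is made from the keratins of the rule and is given as a description. Division genes were 2559, 2447 and 1008 CPM in these groups.

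Members were compared with 57 hair shaft keratinocytes of the same library, cells with 20 or more UMIs of the 4 shaft keratins that were not members. Of 10106 genes with at least 20 UMIs in both classes together, 1618 (16%) were at least 2-fold higher in members and 600 (5.94%) at least 2-fold lower, and the median log2 ratio was 0.18. The median shaft cell had 9181 UMIs and 4 of the cells were called doublets.

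Gata3, Maf, Prr9, Ctsc and Fbp1 were higher in members than in shaft cells. Gata3 was 272 CPM in members and 31.0 in shaft cells, a ratio of 8.77 (5.59 to 14.6), and Maf was 214 against 11.4 (18.8-fold, 9.08 to 46.8). Prr9 was 114 against 3.26 (34.9-fold, 9.61 to 289), Ctsc was 70.6 against 3.26 (21.6-fold) and Dsc1 was 40.6 against 3.26 (12.4-fold, 3.40 to 103), each of them resting on 2 shaft UMIs. Fbp1 had 489 UMIs in 93 members and none in shaft cells, at least 19.7-fold higher against a floor of 3 counts in that class. Shh had UMIs in 45 members and none in shaft cells, at least 8.02-fold higher. Cluster 5 held 107 of these Shh UMIs against 92 in the other members, with 19 in cluster 2 and 0 in cluster 6. Cux1 was 530 against 165 (3.21-fold).

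On the side of the shaft, S100a3 was 63.1 CPM in members against 2873 (ratio 0.0220), and Selenbp1, a selenium-binding protein, was 11.6 against 893 (0.0130). Of 5 shaft genes measured outside the rule, all 5 were at least 2-fold lower in members, beside 5.94% of all genes. The shaft class was chosen by shaft keratins, so this count is partly fixed by that choice. Hoxc13, a homeobox factor that drives shaft keratins, was 37.5 against 475 (0.0789), Lef1 was 89.9 against 392 (0.230) and Jag1, a Notch ligand, was 139 against 611 (0.228). The shaft cells also carried desmosomal cadherins of another kind. Dsg4 was 0.394 CPM in members, from 2 UMIs in 1 cell, and 40.8 in shaft cells, where 16 cells had it, and Dsc2 was 1.38 against 29.4, whereas Dsc1 was higher in members.

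Msx2 and Dlx3 did not differ 2-fold, with log2 ratios of −0.70 and 0.23. Tchh itself was 431 against 309 (1.40-fold, 1.2 to 1.63), but 186 of the 189 shaft UMIs came from 1 cell, and it was found in 3 of the 57 shaft cells. Among the 15 transcription factors of the matrix 3 were higher and 5 lower in members, beside 16% and 5.94% of all genes, and 7 lay between.

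All 15 division genes were at least 2-fold higher in members than in shaft cells, beside 16% of all genes, with a median log2 ratio of 1.89. It was 14 of 15 with called doublets removed, 13 of 15 with the stricter cell filter and 10 of 14 with cells thinned to 1500 UMIs. Mki67 was 210 CPM against 73.5 (2.87-fold, 2.13 to 3.95), Ube2c was 5.38-fold and Mcm5 6.74-fold higher. This rested on the members outside clusters 2 and 6. With only those clusters compared, none of 12 division genes was 2-fold higher and 1 was 2-fold lower, with a median of −0.24, and the log2 ratio of Mki67 turned from 1.52 to −0.17. Of 6 T cell genes 4 were higher in members, as were 4 of 5 melanocyte genes and 4 of 6 fibroblast genes, beside 16% of all genes. UMIs of these lists lie mainly in clusters 4, 5 and 7. Without clusters 4 and 7 all 15 division genes were still 2-fold higher in members, and the part of those clusters in other differences was not tested.

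The comparison with the hair matrix used 825 cells of the same library that carried at least 2 of Msx2, Foxn1, Lef1, Hoxc13 and Dlx3 and 10 or more UMIs of Krt5, Krt14, Krt17, Krt35 and Krt71 together, with fewer than 20 UMIs of either keratin sum. Their median depth was 11971 UMIs, close to the 12221 of members, and 125 of them were called doublets. Of 12024 genes 251 (2.09%) were at least 2-fold higher in members and 775 (6.45%) at least 2-fold lower, around a median log2 ratio of −0.01.

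Few genes reached large ratios over the matrix, and most of them had led clusters 2 and 6. Fbp1 was 174-fold higher (79.5 to 477), Tchh was 431 against 4.98 CPM (86.5-fold, 66.0 to 115) and Prr9 was 82.3-fold higher (49.5 to 148). Slc39a8, Maf and Ctsc were 6.44-fold, 6.13-fold (5.45 to 6.91) and 5.93-fold (4.84 to 7.32) higher. Gata3 was 272 against 82.6 (3.29-fold, 3.02 to 3.58). It was the only one of the 15 matrix transcription factors to be 2-fold higher, and 3 were 2-fold lower. Beside these stand 2.09% higher and 6.45% lower of all genes. Of the 15, Msx2, Foxn1, Lef1, Hoxc13 and Dlx3 had chosen the matrix class, so the count is partly fixed by that choice. Pof1b, an actin-binding protein of epithelial junctions, was 99.0 against 22.0 (4.49-fold).

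Adhesion and barrier genes were higher in some of their members. Beside 2.09% higher and 6.45% lower of all genes, 3 of 13 desmosome genes were 2-fold higher and 2 were 2-fold lower. Dsc1 was among the higher, at 40.6 against 1.84 (22.0-fold, 13.9 to 36.8). Of 11 gap and tight junction genes 4 were higher and none lower, namely Cldn1 (2.22-fold), Cldn4 (2.19-fold), Gjb6 (2.28-fold) and Ocln (2.28-fold). Of 8 genes of the list of trichohyalin and its modification 2 were higher (Tchh and Tgm1) and 1 was lower (Padi4). Tgm1 was 6.27-fold higher (3.42 to 12.1), whereas Padi3 was 15.6 against 14.9. In the desmosome list the structural proteins Dsp and Perp had ratios of 1.46 each.

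The Notch receptors and other signals of the matrix went different ways. Notch1, Notch2 and Notch3 were 1.74-fold, 1.93-fold and 1.96-fold higher in members than in matrix cells, each short of 2-fold. The ligand Jag2 was 0.441 of the matrix level, Bmp4 was 0.488, Bmp2 was 0.305 and Wnt3 was 0.301. In all, 1 of 29 genes of the Hedgehog, Wnt, BMP and Notch list was 2-fold higher, and 8 were 2-fold lower, beside 6.45% of all genes. Shh was 0.667 of the matrix level.

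Keratins of neighbouring layers were lower in members than in the matrix class. All 5 companion layer keratins were 2-fold lower, beside 6.45% of all genes, with Krt75 at 8.68 against 70.3 CPM (0.123) and Krt6a at 0.0446 of the matrix level. Krt17 is 1 of these 5 and helped to choose the matrix class, so the count is partly fixed by that choice. Krt17, Krt5 and Krt14 were 0.296, 0.446 and 0.385 of the matrix level, but the matrix class was chosen partly on them. Hoxc13 and Lef1 were 0.295 and 0.529 and were used in the same choice. Division genes were alike in level between the matrix class and the sum over all members. None of 15 reached 2-fold in either direction, beside 2.09% higher and 6.45% lower of all genes. The median log2 ratio was 0.13, and Mki67 was 1.28-fold higher (1.18 to 1.38). Members were mixed in this respect. Mki67 was 81.1 CPM in cluster 2 and 6.23 in cluster 6, against 165 to 275 in the other clusters. The likeness therefore does not describe clusters 2 and 6.

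**Figure D5:**
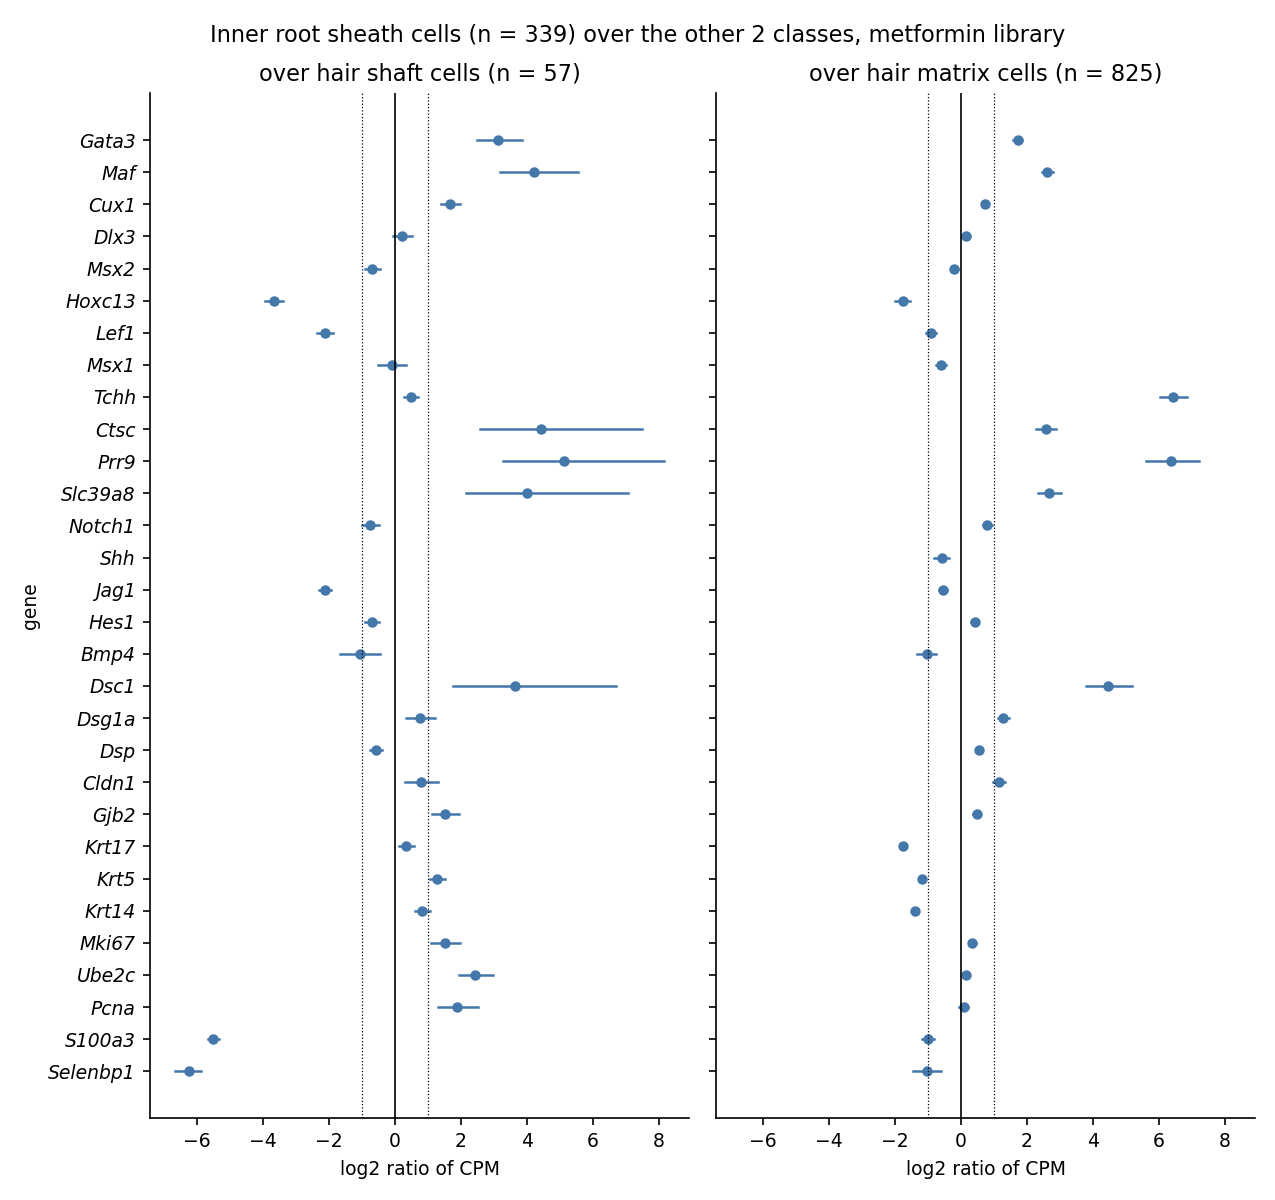
Points give the log2 ratio of CPM in the 339 metformin members over 57 hair shaft cells (left) and over 825 hair matrix cells (right), with 95% conditional binomial intervals, and dotted lines mark a 2-fold ratio. Genes without a UMI in 1 class are not drawn. Gata3, Maf, Ctsc, Prr9 and Dsc1 lie past the 2-fold line in both panels, S100a3 and Selenbp1 are far lower than in the shaft, and the division genes lie past the line on the left only.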

How the data were processed

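Skin of mice was profiled by droplet single-cell RNA sequencing. The deposited matrices are the authors' UMI counts, unnormalized, from Cell Ranger 4.0.0 per the matrix headers, on GRCm38 (mm10) per the processing notes, and list 31053 genes. The libraries labelled control (12108 barcodes) and metformin (12092) were analysed. Other settings of that run are not stated in the sources. No deposited cell type annotation was used.

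Scrublet (scanpy 1.11.5, expected doublet rate 8%) called doublets within each library (402 control and 625 metformin cells). They were kept in the main results and removed in an alternative. The 339 metformin members were scaled to 10000 counts per cell and log-transformed. Leiden clustering (leidenalg 0.10.2) used 1500 variable genes, 20 components, 15 neighbours and resolution 0.5, leaving out Krt, Krtap, mitochondrial, ribosomal and listed genes. Levels are summed counts per 1000000 (CPM) outside the 9 keratins of the rule with exact Poisson intervals, and ratios have exact conditional binomial intervals, at 95%. A gene entered a ratio with 20 UMIs in both classes together and was called higher or lower past 2-fold. No test was run, because 1 library per agent gives no replicates and cells are not replicates. The intervals do not reflect that a sum can rest on few cells.

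Named genes are members of the lists, the 12 highest and 8 lowest ratios with at least 100 UMIs and 50 CPM, and the 6 leading genes of each cluster. Others (Dsc1 and Maf by cluster or bin, Lhx2, Lgr5, the division of cluster 2 and the cells at the edge of the rule) were chosen after their values were seen. The members and lists were chosen with earlier results of these data known. Of the listed symbols 3 matched no gene name. RefSeq promoters (GRCm38.p6) were matched by symbol for all 5 keratins. Scripts used Python 3.11.15, numpy 2.4.6, scipy 1.17.1 and pandas 2.3.3, and were tested on simulated data.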

Additional observations from a re-analysis of the deposited data

How the results depend on the processing

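No paired analysis was possible because each agent has 1 library. Of the summary values 40 stayed close to those reported under an alternative and 36 moved, and of the values of single genes 44 stayed, 35 moved and 1 reversed. The share of members in the metformin library (2.89%) was 6.27% with a keratin minimum of 10 UMIs, 1.18% with 50, 1.56% with 300 to 3000 genes and at most 8% mitochondrial counts, and 0.485% with cells thinned to 1500 UMIs. In the control library (0.0692%) it was 0.138%, 0.0260%, 0.0202% and 0.00963%.

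The 2-fold counts moved with the genes and cells admitted. Against the hair shaft, 1618 higher genes became 734 with thinned cells and 629 with clusters 2 and 6 alone, and 600 lower genes became 1719 with no UMI minimum, 338 with the stricter cell filter and 205 with thinned cells. Against the hair matrix, 251 higher genes became 531 with each cell weighted equally, 1087 with no UMI minimum, 678 with the stricter filter and 984 with clusters 2 and 6 alone. The 775 lower genes became 1326 with no UMI minimum, 1469 without clusters 4 and 7 and 2162 with clusters 2 and 6 alone. The log2 ratio of Mki67 over the shaft turned from 1.52 to −0.17 with clusters 2 and 6 alone, and that of Tchh was 0.48 as reported, 8.11 with the stricter filter and 2.04 with each cell weighted equally.

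The 7 clusters became 4 at resolution 0.25 or with 30 neighbours. The cluster of highest Tchh (24.2% of members) then held 31.3% in both, 18.9% at resolution 1 and 32.7% without called doublets. The cluster of highest Krt73 (6.78%) held 31.3% in both, where it was the Tchh cluster, and 12.1% at resolution 1. The cluster of highest division level (11.5%) held 36.0% at resolution 0.25, 34.5% with 30 neighbours and 27.1% without called doublets. With all genes used, 81 of the 82 cells of cluster 2 and 22 of the 23 of cluster 6 stayed together, but the cluster of highest division level (38 cells) shared only 16 of the 39 cells of cluster 5. Between the lowest and highest bins of keratin share, the log2 ratio of division genes (−2.47) was −2.72 without clusters 4 and 7, and that of Gata3 (2.04) was 2.30 without called doublets, 2.34 with thinned cells and 2.48 without clusters 4 and 7. The cause of these shifts was not tested. Settings that leave out clusters, or keep clusters 2 and 6 alone, were added after seeing the data. Within 5 UMIs of the minimum lie 72 members.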
